A study of Homo sapiens with 4 samples.

Results

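The nuclear-encoded genes of the mitochondrial respiratory chain were followed in HER2-positive breast cancer cells and in clones of these cells made resistant to lapatinib, which blocks the kinase activity of EGFR and HER2. Genes were taken by their symbols: those starting with NDUFA, NDUFB, NDUFC, NDUFS, NDUFV, UQCR, COX4, COX5, COX6, COX7, COX8 or ATP5, together with SDHA, SDHB, SDHC, SDHD and CYC1. Of the 16422 genes that the probes of the array named, 89 met this rule, with 121 probes between them. Complex I contributed 37 of the 89, complex II 4, complex III 9, complex IV 16 and complex V 18. The prefix NDUFA also took 5 NDUFAF genes, which encode factors that help to build complex I and are not part of the finished enzyme. These were described apart from complex I but stay in the values for all respiratory chain genes together. In RefSeq 97 protein-coding symbols meet the rule, and for 8 of them (ATP5MF-PTCD1, ATP5MGL, COX8C, NDUFAF3, NDUFAF7, NDUFAF8, NDUFC2-KCTD14 and UQCRHL) no probe was named here.

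SkBr3 and BT474 are established breast cancer cell lines with amplified HER2. The parental cells of each line are labelled as treated with vehicle, and the resistant cells were grown in rising lapatinib up to 1 μM. Each resistant group is a single clone on 1 array, so the 4 groups (SkBr3 parental, SkBr3 resistant, BT474 parental and BT474 resistant) have no replicates, and no test was possible within a cell line. The sample labels number the SkBr3 clone 3 and the BT474 clone 6, whereas the paper uses these numbers the other way round, so the clones are called here by their cell line only.

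The respiratory chain passes electrons from NADH (complex I) and succinate (complex II) through ubiquinone to complex III, then through cytochrome c to complex IV, where oxygen is reduced to water. Complexes I, III and IV pump protons across the inner mitochondrial membrane, and complex V, the ATP synthase, uses the returning protons to make ATP. Most subunits are encoded in the nucleus and imported. The subunits that mitochondrial DNA encodes had no named probe on this array, so each complex that contains them is seen only through its nuclear part. RNA levels say nothing of the amount of assembled complex.

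Signals of the 4 arrays differed in overall brightness, with a 75th percentile over probes of 1115 in SkBr3 parental, 2074 in SkBr3 resistant, 1158 in BT474 parental and 1681 in BT474 resistant cells. A scaled signal below is therefore the processed signal of a probe divided by that percentile of its own array, and a log2 fold change is the difference of 2 scaled log2 signals, resistant minus parental. Spots of one probe on the same array had a median SD between 0.075 and 0.081 in log2 units. This is error within an array only, and error between cultures, labelings or slides was not measured. The 3 other samples shared a slide that did not hold the SkBr3 resistant array, so slide and resistance cannot be told apart for SkBr3. Of the 89 genes, 87 had a probe that reached a signal of 100 on at least 1 array. COX4I2 and COX7A1 did not. All of the 87 but COX7B2 were well above background on every array, and 60 lay in the brightest 10% of the 12159 genes kept by mean signal.

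In the SkBr3 resistant clone, most respiratory chain genes were modestly lower than in the parental cells, whereas in the BT474 resistant clone they lay close to the parental level. The median log2 fold change of the 87 genes was -0.32 in the SkBr3 clone, with the middle 50% between -0.64 and -0.09, and 76 of the 87 values were below 0. All 12159 genes had a median of -0.06 in the same clone, and 53.2% of them were below 0. In the BT474 clone the median was -0.11, with the middle 50% between -0.30 and 0.10, against -0.09 for all genes. There 57 of the 87 values were below 0 (65.5%), as were 56.9% of all genes. The sign of the BT474 median depended on the scaling. It was 0.17 when the percentile came from probes well above background only, 0.13 after quantile normalization, 0.14 after cyclic loess and 0.11 after normexp with quantile normalization. The SkBr3 median stayed below 0 under all 11 alternatives, between -0.32 and -0.07. With the percentile from probes well above background, 49 of the 87 genes were below the parent in SkBr3 and 26 in BT474, while the medians of all genes shifted to 0.19 and 0.20. Relative to the median of all genes, the respiratory chain median lay between -0.26 and -0.14 in SkBr3 and between -0.03 and 0.17 in BT474 over the settings. Without the complex I assembly factors, the reported medians of the other 82 genes were -0.33 in SkBr3 and -0.11 in BT474.

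In SkBr3, 5 genes were at least 2-fold lower in the clone (COX6C, NDUFA5, ATP5F1D, ATP5F1A and NDUFS7), where 14.4% of all genes were, and 1 was at least 2-fold higher (COX7B2), where 14.1% were. In BT474 none of the 87 passed 2-fold in either direction, while among all genes 9.2% passed it upward and 5.4% downward. Nor did any respiratory chain gene pass 2-fold in the same direction in both clones, which 3.07% of all genes did upward and 1.45% downward. The values of the 87 genes lay closer together than those of genes at large. Their interquartile range was 0.55 in the SkBr3 clone and 0.40 in the BT474 clone, against 1.11 and 0.73 for all genes. Bright probes spread less in general, and the 1216 genes in the top 10% by mean signal had interquartile ranges of 0.71 and 0.47. Among these bright genes the medians were -0.12 in the SkBr3 clone and -0.25 in the BT474 clone, with 58.6% and 76.3% below 0. The part of probe brightness in the respiratory chain values was not tested.

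**Figure D1:**
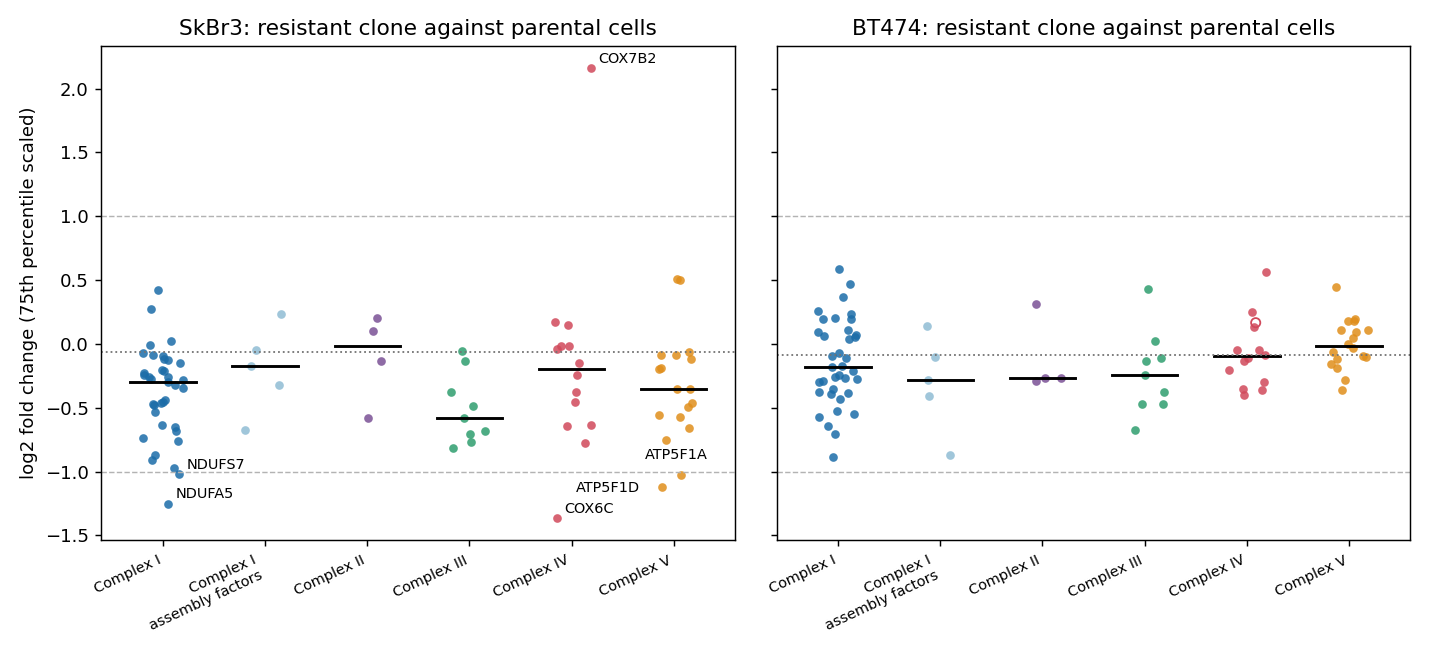
Log2 fold change of each respiratory chain gene in the SkBr3 (left) and BT474 (right) resistant clone against its parental cells, by complex. Points are genes with 1 array per group, black bars are the medians of a complex, the dotted line is the median of all genes (-0.06 in SkBr3, -0.09 in BT474), dashed lines mark 2-fold, and the open circle is COX7B2 in BT474, not well above background on either array. The 6 labelled genes passed 2-fold in the SkBr3 clone and no gene passed it in the BT474 clone.

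The medians of the complexes moved with the scaling. In SkBr3 those of complexes I, III and V stayed below 0 in all 12 settings, at -0.30 to -0.048, -0.58 to -0.33 and -0.39 to -0.10, while complex II ranged from -0.063 to 0.23 and complex IV from -0.20 to 0.056. In BT474 the median of every complex turned above 0 in at least 1 setting. There complex I ranged from -0.39 to 0.098, complex II from -0.47 to 0.015, complex III from -0.45 to 0.041, complex IV from -0.30 to 0.20 and complex V from -0.22 to 0.29.

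Complex I, NADH dehydrogenase, is the largest complex of the chain. In the SkBr3 clone 34 of its 37 nuclear subunits were below the parental level, with a median log2 fold change of -0.30, and 2 of them passed 2-fold. In the BT474 clone 23 of 37 were below and 14 above it, with a median of -0.18. Of all genes 53.2% were below the parent in SkBr3 and 56.9% in BT474.

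The lowest log2 fold change of complex I in the SkBr3 clone was that of NDUFA5, an accessory subunit of the arm that protrudes into the matrix. NDUFA5 had a scaled signal of 16.3 in SkBr3 parental, 6.86 in SkBr3 resistant, 4.92 in BT474 parental and 5.15 in BT474 resistant cells. SkBr3 parental cells stood above the other 3 samples. The clone was 2.38-fold below its parent (log2 fold change -1.25), and the BT474 pair differed by 0.07. A second NDUFA5 probe gave -0.89 and -0.08.

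NDUFS7, a core iron-sulfur subunit that hands electrons to ubiquinone, had scaled signals of 60.1 and 29.6 in the SkBr3 pair and of 26.2 and 16.8 in the BT474 pair, parental cells first. Both clones were below their parents, by 2.03-fold in SkBr3 (log2 fold change -1.02) and 1.56-fold in BT474 (-0.64). A second probe gave -0.98 and -0.46. NDUFS7 was below the parent in both clones under all 11 alternatives, but it passed 2-fold in SkBr3 in only 6 of the 12 settings, counting the one reported.

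A promoter window is shown for each of NDUFA5 and NDUFS7, the complex I genes that passed 2-fold in SkBr3. The windows printed differ in the sites usually looked for in respiratory chain genes. Each line gives the 250 bases before the start of the gene in RefSeq (GRCh38.p14), 5′ to 3′ on the strand of the gene, in lower case with matches to the motifs searched in capitals. For NDUFA5, which has 3 windows, the first listed is at chr7:123601652-123601901 on the minus strand. Its other windows were not compared, so the difference from NDUFS7 holds for this window only. The NDUFS7 window is at chr19:1383657-1383906 on the plus strand.
NDUFA5: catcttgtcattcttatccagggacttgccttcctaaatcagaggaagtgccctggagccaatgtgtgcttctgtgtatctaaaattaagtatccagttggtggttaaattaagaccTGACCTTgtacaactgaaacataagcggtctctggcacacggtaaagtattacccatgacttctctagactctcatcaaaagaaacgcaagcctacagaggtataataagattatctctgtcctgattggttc
NDUFS7: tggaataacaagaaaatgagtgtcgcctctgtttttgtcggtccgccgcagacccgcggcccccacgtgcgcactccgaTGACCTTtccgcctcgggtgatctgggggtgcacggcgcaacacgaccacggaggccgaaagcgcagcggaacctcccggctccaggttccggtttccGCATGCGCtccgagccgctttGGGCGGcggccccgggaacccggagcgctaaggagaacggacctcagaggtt
The NDUFA5 window has 3 CpG and is 41.6% GC, and the match in capitals is the ERR alpha half-site AAGGTCA on the opposite strand. NDUFS7 has 30 CpG, 65.6% GC, and matches to ERR alpha, NRF1 (GCATGCGC) and Sp1 (GGGCGG).

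These and 3 more short motifs, GABP (CCGGAAG), YY1 (AAGATGGC) and CREB (TGACGTCA), none of which contains another, were searched on both strands in the same 250 bases of 73 of the 87 genes that had a window, using the first window of a gene. NRF1 letters were found in 16.4% of the 73 windows and in 3.7% of those of 15843 protein-coding genes. GABP letters were in 24.7% against 11.8%, ERR alpha in 6.85% against 2.79%, CREB in 5.48% against 2.32%, Sp1 in 54.8% against 56.0% and YY1 in 1.37% against 1.39%. NRF1 and GABP are known as activators of many respiratory chain genes. A match describes the letters only and no binding was measured.

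The other nuclear core subunits of complex I carry the flavin and iron-sulfur clusters. NDUFS1, with scaled signals of 18.8, 13.9, 11.8 and 8.06 in the order SkBr3 parental, SkBr3 resistant, BT474 parental and BT474 resistant (used from here on), was lower in both clones, by -0.44 and -0.55. NDUFV1, which binds NADH and the flavin, had 38.5, 26.7, 34.0 and 26.1, or log2 fold changes of -0.53 and -0.38. For NDUFS3 the scaled signals were 26.4, 22.9, 23.1 and 17.2. NDUFS8 gave 25.8, 21.8, 42.7 and 32.9. In these 4 subunits each clone was below its parent. NDUFV2 differed, with 27.9, 27.8, 30.1 and 34.4, level in SkBr3 and 0.20 higher in the BT474 clone. Over the 7 nuclear core subunits the median log2 fold change was -0.25 in SkBr3 and -0.38 in BT474, and over the 30 other subunits -0.31 and -0.10.

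Among accessory subunits of complex I, NDUFV3 had the lowest log2 fold change of the complex in the BT474 clone. Its scaled signals were 12.7, 10.6, 7.86 and 4.25, a log2 fold change of -0.26 in SkBr3 and -0.89 in BT474, with the BT474 resistant cells lowest of the 4. NDUFB6, a subunit of the membrane arm, had the highest there, with scaled signals of 16.9, 14.6, 3.55 and 5.33 and log2 fold changes of -0.21 and 0.59. Even so, both BT474 samples were well below both SkBr3 samples. NDUFS6, a zinc-binding subunit next to the NADH site, was highest in SkBr3 resistant cells, with scaled signals of 43.0, 57.6, 41.7 and 29.0, with log2 fold changes of opposite sign in the clones (0.42 and -0.52). The remaining accessory subunits had log2 fold changes between -0.98 (NDUFB11) and 0.27 (NDUFA10) in SkBr3 and between -0.71 (NDUFA9) and 0.47 (NDUFA7) in BT474. NDUFB11, with scaled signals of 20.5, 10.4, 20.3 and 24.2, thus stayed just short of 2-fold.

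Of the 5 complex I assembly factors, 4 were below the parental level in each clone, with medians of -0.17 and -0.28. The share of all genes below it was 53.2% in SkBr3 and 56.9% in BT474, and 5 genes are too few to set apart from these. NDUFAF2, needed for a late step of assembly, had scaled signals of 7.11, 6.32, 5.47 and 2.99, and its log2 fold change in BT474 was -0.87, which 2 more probes placed at -0.75 and -0.95. NDUFAF1, which acts early, had 8.85, 5.55, 6.16 and 6.79 and was lower in the SkBr3 clone only (-0.67, against 0.14 in BT474). NDUFAF6 was dim in SkBr3, at 0.239 and 0.281, and reached 1.28 and 1.05 in BT474.

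Complex II, succinate dehydrogenase, belongs to both the chain and the tricarboxylic acid cycle, and its 4 subunits are all nuclear. SDHA, the flavoprotein, had scaled signals of 25.0, 26.8, 26.5 and 22.0. SDHB, the iron-sulfur subunit, had 22.9, 26.3, 12.5 and 10.3, and SDHC, a membrane anchor, 6.22, 5.67, 7.86 and 6.54. By the probes used, these 3 subunits were within 1.22-fold of the parent in each clone. The log2 fold changes were 0.10, 0.20 and -0.13 in SkBr3 and -0.27, -0.29 and -0.26 in BT474. A second SDHA probe lay further from the parent, at 0.56 in SkBr3 and -0.37 in BT474. SDHD, the other anchor, had 11.1, 7.41, 5.14 and 6.40, lower in the SkBr3 clone (-0.58) and higher in the BT474 clone (0.32). All 4 SDHD probes shared these directions, from -0.61 to -0.40 in SkBr3 and from 0.31 to 0.43 in BT474.

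Complex III, the cytochrome bc1 complex, had the lowest median of the complexes in the SkBr3 clone, -0.58, and all 9 of its genes were below the parent. In the BT474 clone the median was -0.24, with 7 of 9 below. Of all genes 53.2% were below the parent in SkBr3 and 56.9% in BT474. CYC1, the gene of cytochrome c1, was lower by nearly the same amount in both clones. Its scaled signals of 17.5, 10.8, 18.0 and 11.3 placed both parental samples above both clones, a log2 fold change of -0.70 in SkBr3 and -0.67 in BT474. UQCRFS1, the Rieske iron-sulfur protein, had 49.6, 38.2, 29.0 and 20.9, or -0.38 and -0.47. For the core proteins, UQCRC1 had 24.3, 15.1, 11.3 and 9.55 and UQCRC2 had 20.2, 13.5, 9.46 and 8.78. Both were further below the parent in SkBr3 (-0.68 and -0.58) than in BT474 (-0.24 and -0.11), a difference that was not tested. UQCRB, a ubiquinone-binding subunit, had scaled signals of 2.51, 1.79, 5.68 and 7.63, with both SkBr3 samples below both BT474 samples and clones on opposite sides of their parents (-0.49 and 0.43). The lowest log2 fold change of the complex in SkBr3, -0.82 in UQCR11 (scaled signals 71.4, 40.5, 57.7 and 58.7), was not shared by a second, dimmer probe, which gave 0.20. UQCR10 had 60.2, 58.0, 33.5 and 30.5, or -0.05 and -0.13.

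Complex IV, cytochrome c oxidase, held both the lowest and the highest log2 fold change among the 87 genes in the SkBr3 clone. COX6C, one of its small subunits, had a scaled signal of 38.5 in SkBr3 parental, 15.0 in SkBr3 resistant, 25.6 in BT474 parental and 30.4 in BT474 resistant cells. The SkBr3 clone was the lowest of the 4 samples, 2.57-fold below its parent (log2 fold change -1.36), and the BT474 clone was 1.19-fold above its own. Among the 6 genes past 2-fold in SkBr3, COX6C and COX7B2 stayed past it under every alternative that gave a value, and COX6C kept its direction in both clones. COX7C, another small subunit, had 63.1, 40.4, 29.6 and 28.7, or -0.64 and -0.04. COX4I1, which with COX5A and COX5B forms part of the regulatory layer of the enzyme, had 64.8, 58.4, 72.3 and 65.9. COX5A had 15.5, 15.3, 12.2 and 9.58 and COX5B had 88.4, 74.7, 63.2 and 59.6. Log2 fold changes of these 3 genes lay between -0.24 and -0.01 in SkBr3 and between -0.35 and -0.08 in BT474. COX7A2L, which helps complexes III and IV join into supercomplexes, had 21.4, 23.7, 19.4 and 14.7, or 0.15 and -0.40.

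Several complex IV subunits have a general and a tissue-restricted isoform. COX7B2 is the paralogue of COX7B, with a log2 fold change of 2.16 in SkBr3. It was kept only because its signal reached 100 in the SkBr3 clone (99.2, 824, 3.51 and 5.72 before scaling), so the filter itself favoured a high value there. Its scaled signal was 0.0890 in SkBr3 parental and 0.397 in SkBr3 resistant cells, 4.46-fold higher in the clone, and the probe was not well above background in either BT474 sample, so no fold change is given there. Against BT474 the signal was at least 6.46-fold higher in SkBr3 parental cells and at least 45.6-fold higher in the resistant clone. COX7B itself was measured at 17.2, 19.4, 4.05 and 5.97, with both SkBr3 samples above both BT474 samples and log2 fold changes of 0.17 and 0.56. Of the 86 respiratory chain genes with a value in every setting, only COX7B was above its parent in both clones throughout. Among all genes 10.6% of 10971 were.

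The promoters of this pair are printed to show how the paralogues compare upstream of their starts. In the same layout as above, COX7B is at chrX:77899218-77899467 on the plus strand and COX7B2 at chr4:46909246-46909495 on the minus strand.
COX7B: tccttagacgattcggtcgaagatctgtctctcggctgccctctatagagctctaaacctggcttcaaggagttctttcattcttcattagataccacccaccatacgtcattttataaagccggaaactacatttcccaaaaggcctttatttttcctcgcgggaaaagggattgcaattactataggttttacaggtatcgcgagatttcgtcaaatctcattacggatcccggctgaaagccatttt
COX7B2: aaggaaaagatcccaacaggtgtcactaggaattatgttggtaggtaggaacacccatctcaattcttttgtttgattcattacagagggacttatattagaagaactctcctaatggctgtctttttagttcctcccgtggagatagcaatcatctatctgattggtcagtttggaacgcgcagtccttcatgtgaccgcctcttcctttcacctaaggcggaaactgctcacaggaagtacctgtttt
Neither window contains any of the 6 motifs, so no letters are in capitals. Both are 43.2% GC, with 13 CpG in COX7B and 5 in COX7B2, compared with a median of 18 over the windows of the 73 genes.

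In the other isoform pairs the general form was bright on every array. COX6A1 had scaled signals of 79.6, 58.1, 87.6 and 68.3, lower in both clones (-0.45 and -0.36). The probe of COX6A2, known as the heart and skeletal muscle form, was well above background on all 4 arrays with 15.9, 15.7, 8.70 and 8.40, and it differed from the parent by -0.02 and -0.05. COX6B1 had 59.8, 38.4, 33.3 and 36.4, or -0.64 and 0.13. Its paralogue COX6B2 had 0.0841, 0.0817, 0.0815 and 0.0663, with a second probe that was well above background only in BT474 parental cells. COX7A2 had 83.1, 64.1, 62.2 and 57.6 and COX8A had 96.3, 56.4, 125 and 109, with COX8A at -0.77 in SkBr3 and -0.21 in BT474. The muscle form COX7A1 was not well above background on any array. COX4I2, a form linked to low oxygen, had signals of 26.9, 46.6, 29.9 and 36.4 before scaling, under the minimum of 100. The gene long called NDUFA4, now COXFA4, is outside the rule by its present symbol. Its probes gave -0.67 and -0.68 in SkBr3 and -0.35 and -0.11 in BT474, and the related COXFA4L2 was not well above background on any array.

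Complex V, the ATP synthase, had a median of -0.35 in the SkBr3 clone, with 16 of 18 genes below the parent (53.2% of all genes were). In the BT474 clone the median was -0.02, with 10 of 18 below (56.9% of all genes were). Both genes that were at least 2-fold lower belong to the catalytic F1 part. ATP5F1A, the alpha subunit, had scaled signals of 47.5, 23.3, 77.8 and 80.5. The SkBr3 clone was lowest, 2.04-fold below its parent (log2 fold change -1.03), and the BT474 clone was level with its own (0.05). ATP5F1D, the delta subunit of the rotating stalk, had 17.5, 8.06, 4.96 and 5.34, with SkBr3 parental cells highest. Its SkBr3 clone was 2.17-fold lower (-1.12, with -0.91 from a second probe) and its BT474 clone 1.08-fold higher (0.11). ATP5F1A stayed past 2-fold in 7 of the 12 settings and ATP5F1D in 10. ATP5F1B, the catalytic beta subunit, was not lower to the same degree, with 44.3, 38.7, 30.5 and 25.1, or -0.19 and -0.28.

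The membrane part of complex V contained the 2 genes that were above the parent in SkBr3. ATP5MK, a small subunit of the membrane part, had 35.3, 50.4, 28.3 and 30.2, or 0.51 and 0.09, and ATP5ME, subunit e, had 27.4, 38.8, 18.6 and 21.0, or 0.50 and 0.18. The c subunit, which forms the rotor ring, is encoded by 3 genes with the same mature protein. Of these, ATP5MC1 had 14.6, 13.9, 42.3 and 57.6, with the highest log2 fold change of the complex in BT474 (0.44). ATP5MC2 had 42.9, 39.5, 80.8 and 79.0, and ATP5MC3 had 138, 100.2, 110 and 85.3. ATP5MC3 was lower in both clones (-0.46 and -0.36), but a second, much dimmer probe gave -1.19 and 0.44. ATP5IF1, which inhibits the enzyme when it runs backward, had 77.4, 52.6, 57.1 and 56.9.

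**Figure D2:**
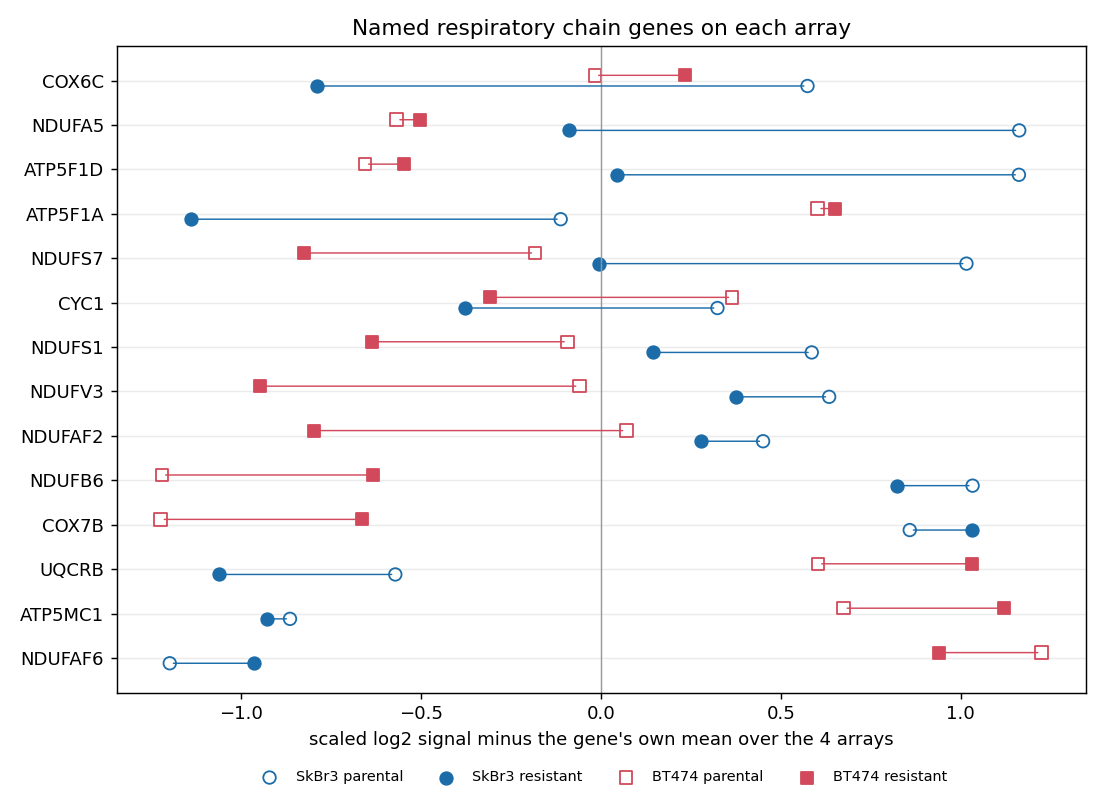
Scaled log2 signal of 14 named genes on each of the 4 arrays, each gene centred on its own mean over the arrays. Circles are SkBr3, squares BT474, open symbols parental cells and filled symbols the resistant clone, joined by a line within a cell line. COX6C, NDUFA5, ATP5F1D and ATP5F1A are lower in the SkBr3 clone and not in the BT474 clone, NDUFS7, CYC1 and NDUFS1 are lower in both, and for NDUFB6, COX7B, UQCRB, ATP5MC1 and NDUFAF6 the cell lines are further apart than parent and clone.

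Where a gene had more than 1 kept probe, as 27 did, the median range of log2 fold change over its probes was 0.16 in SkBr3 and 0.18 in BT474, and the widest was 1.02 and 0.80. Probes of a gene differed in sign for 2 genes in SkBr3 and 7 in BT474, and in passing 2-fold for 5 genes in SkBr3 (ATP5F1D, NDUFA5, NDUFS7, ATP5MC3 and NDUFC2). In the last of these the probe used gave -0.74 and a dimmer one -1.64. Respiratory chain genes are known to have processed pseudogenes, and signal from such copies could not be told apart, since probe sequences were not used here.

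Parental cells and clones were compared separately in each cell line, with no sample shared, so the values of the clones can be set side by side. Over the 87 genes Pearson's r between the log2 fold changes in SkBr3 and in BT474 was 0.02, against 0.08 across all 12159 genes, given as a description since all values of a clone come from the same pair of arrays. Both clones were below the parent for 51 of the 87 genes (58.6%, and 29.4% of all genes) and both above for 5 (5.75%, and 19.3% of all genes). COX7B2 is among these 5 only by a BT474 value that was not well above background. Since a change of scaling moves all values of a clone together, the directions were also read under every setting. Of the 86 respiratory chain genes with a value in all 12 settings, 12 were below the parent in both clones throughout: NDUFA9, NDUFA13, NDUFC1, NDUFS1, NDUFS7, NDUFV1 and NDUFV3 of complex I, the assembly factor NDUFAF5, CYC1, UQCRFS1 and UQCRH of complex III, and COX6A1. This is 12 of 86, where 12.1% of 10971 genes did the same. A further 6 were lower in SkBr3 and higher in BT474 throughout (COX6C, NDUFA7, NDUFB3, NDUFB11, SDHD and UQCRB), as were 11.5% of the 10971 genes, and 4 the reverse (COX7A2L, NDUFAF6, NDUFS6 and SDHB), as were 15.3%.

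**Figure D3:**
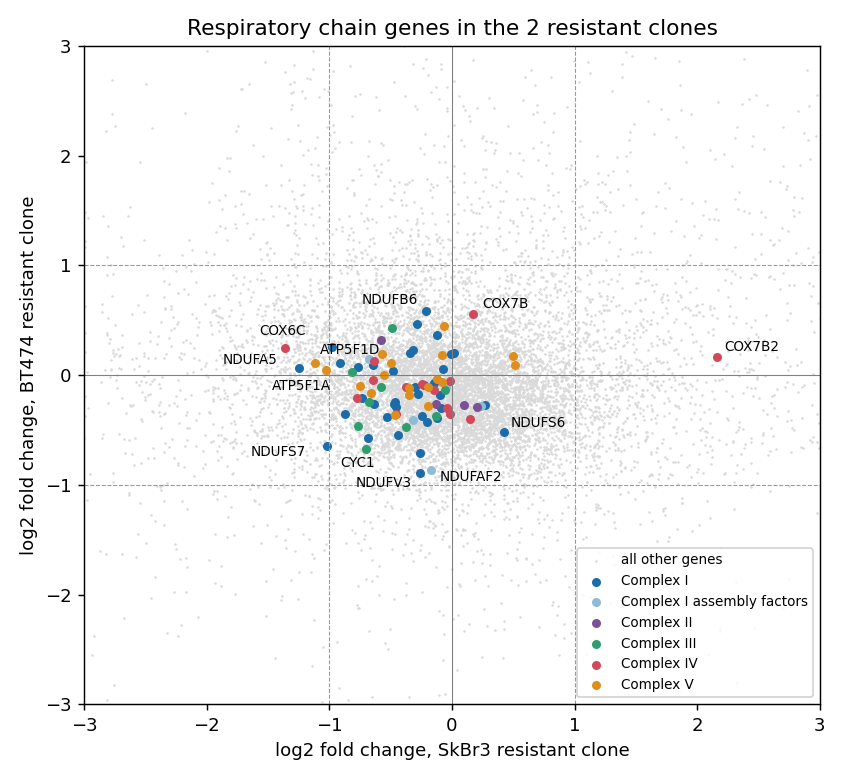
Log2 fold change in the BT474 resistant clone (vertical) against that in the SkBr3 resistant clone (horizontal) for the respiratory chain genes, coloured by complex, and for all other genes in gray, with 1 array per sample. Dashed lines mark 2-fold, and gray points beyond 3 on either axis are not drawn. The coloured points lie mostly to the left of 0 and between the horizontal dashed lines, and COX7B2 stands apart at 2.16 in SkBr3.

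The only test the design allows across all 4 arrays takes the cell lines as the replicates of resistance, with 1 residual degree of freedom. By limma with cell line as a block, 0 of the 87 genes had an adjusted p under 0.05, as did 0.0% of all 25927 probes. At an unadjusted p under 0.05 the count was 0 of 87, while 3.47% of all probes were under it. The smallest adjusted p among the 87 genes was 1.00. The gene with the smallest unadjusted p was NDUFS7, whose mean log2 fold change over the cell lines was -0.83 with a standard error of 0.43. With 2 cell lines and 1 array each, a test that misses the threshold does not show that levels were alike.

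The cell lines were also compared with each other. In parental cells 70 of the 87 genes had a higher scaled signal in SkBr3 than in BT474, where 51.2% of all genes did, and the median log2 difference was 0.59 against 0.03 for all genes. At least 2-fold higher in SkBr3 were 24 genes (19.1% of all genes were), and at least 2-fold higher in BT474 were 3 (19.7%). These 3 were ATP5MC1 (2.91-fold), UQCRB (2.26-fold) and NDUFAF6 (5.36-fold). NDUFB6 (4.77-fold), COX7B (4.24-fold), ATP5F1D (3.53-fold) and NDUFA5 (3.32-fold) led those measured in both lines that were higher in SkBr3. The 24 also include COX7B2, which was not well above background in BT474. It was kept only through its signal in the SkBr3 clone. Medians were 0.69 for complex I, 0.78 for complex III, 0.45 for complex IV and 0.79 for complex V, and the 1216 brightest genes had a median of 0.12. Both parental arrays were on the same slide. The median stayed between 0.45 and 0.64 over the settings, whereas the count at least 2-fold higher in SkBr3 ranged from 13 to 26.

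Between the resistant clones the median difference was 0.53, against 0.09 for all genes and 0.30 for the 1216 brightest. There 65 of 87 genes were higher in SkBr3, as were 52.8% of all genes and 64.3% of the 1216 brightest. Only 8 genes were at least 2-fold higher in SkBr3 (24.2% of all genes) and 6 at least 2-fold higher in BT474 (23.6%). The 2-fold differences that held in both parental and resistant cells were those of COX7B, COX7B2 and NDUFB6, higher in SkBr3, and of ATP5MC1, NDUFAF6 and UQCRB, higher in BT474. COX7B2, also counted among the 8, was not well above background in either BT474 sample. The signal filter kept it only through the SkBr3 clone, so its difference is no support for a higher level in SkBr3. Of all genes 11.98% held upward in SkBr3 and 13.5% upward in BT474. This comparison sets an array on 1 slide against an array on the other, and its median was 0.20 after cyclic loess and 0.94 with median scaling.

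**Figure D4:**
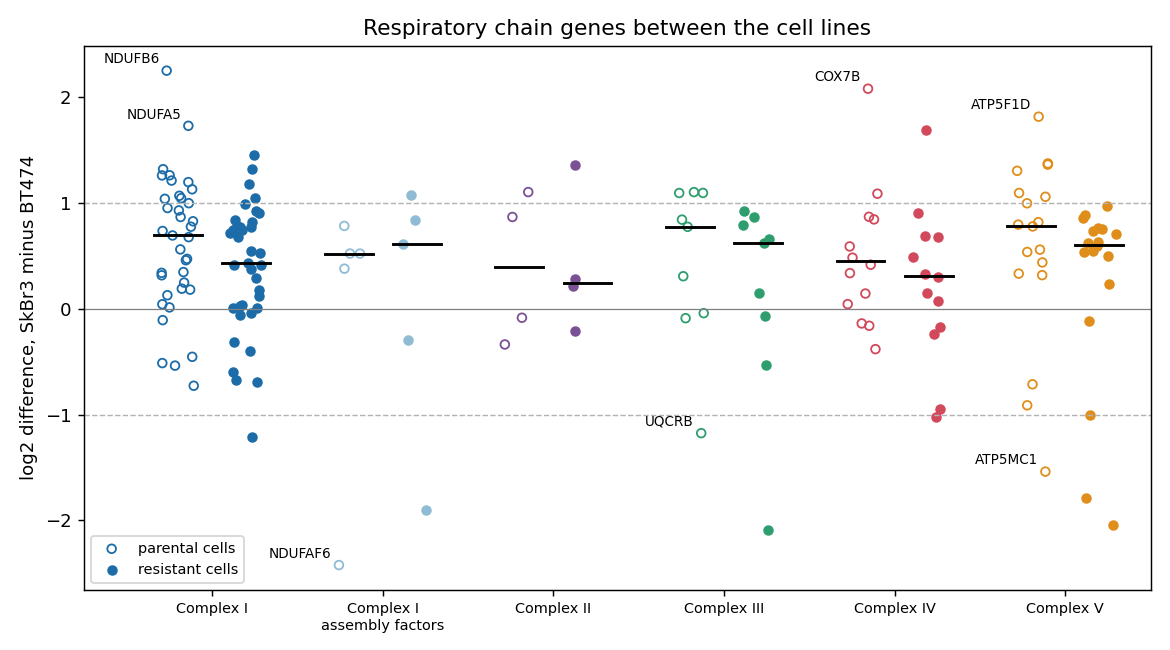
Log2 difference of the scaled signal, SkBr3 minus BT474, for each respiratory chain gene in parental (open) and resistant cells (filled), by complex. Bars are the medians of all genes of a complex, dashed lines mark 2-fold, and COX7B2 is not drawn, since it was not well above background in BT474. Most points lie above 0, with medians over all 87 genes of 0.59 in parental and 0.53 in resistant cells.

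Genes around the chain were described in the same way. The 41 kept factors that help to build the complexes and fall outside the rule had medians of 0.01 in SkBr3 and -0.23 in BT474. Of them COX15 (1.21) and SCO2 (1.20) were at least 2-fold higher in the SkBr3 clone and TTC19 (-1.02) at least 2-fold lower, and none passed 2-fold in BT474. Of all genes 14.1% were at least 2-fold higher and 14.4% lower in SkBr3, and 9.2% and 5.4% in BT474. COX15 makes heme A and SCO2 delivers copper for complex IV. Among 9 genes of cytochrome c and of carriers and channels for nucleotides and phosphate, the adenine nucleotide translocator SLC25A4 was higher in the SkBr3 clone (scaled signals 2.57, 6.95, 14.9 and 15.0, log2 fold change 1.44). Another translocator, SLC25A6, was lower in the BT474 clone (30.6, 24.0, 36.7 and 13.9, -1.40). These 5 genes were picked after their values were seen.

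Of 17 genes of the tricarboxylic acid cycle, 4 were at least 2-fold lower in the SkBr3 clone, where 14.4% of all genes were. In the BT474 clone 1 was at least 2-fold higher and 1 lower, against 9.2% and 5.4% of all genes. IDH2, the NADP-linked mitochondrial isocitrate dehydrogenase, was lower in both, with scaled signals of 10.8, 5.26, 12.9 and 6.30 and log2 fold changes of -1.03 and -1.03. The 76 genes of the mitochondrial ribosome had medians of -0.01 and -0.29, and the 82 of the cytosolic ribosome -0.55 and -0.31. After quantile normalization the cytosolic ribosome medians became -0.08 and 0.05, so they depended on the normalization.

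Among 19 regulators of mitochondrial gene expression the medians were 0.19 in SkBr3 and -0.21 in BT474. PPRC1, a coactivator of the PGC-1 family, had scaled signals of 3.10, 6.82, 5.51 and 3.84, a log2 fold change of 1.14 in SkBr3 and -0.52 in BT474. TWNK, the helicase of mitochondrial DNA, had 4.06, 9.16, 10.2 and 5.79, or 1.17 and -0.82. MTERF1, a mitochondrial transcription factor, had 0.638, 0.257, 0.395 and 0.371 and was lower in SkBr3 (-1.31). PPARGC1A, the gene of PGC-1 alpha, was not well above background in either SkBr3 sample and had 0.200 and 0.339 in the BT474 pair, 1.69-fold higher in the clone. ESRRG was not well above background in SkBr3 parental cells and at least 1.41-fold higher in the clone, and had 0.132 and 0.245 in the BT474 pair. The other 14 regulators, among them NRF1 (0.26 and -0.33), GABPA (-0.26 and -0.59), TFAM (-0.03 and -0.56), ESRRA (-0.30 and -0.56) and MYC (0.90 and -0.21), were within 2-fold in both clones.

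Defining markers were read to check the labelled cells. Of 7 luminal epithelial markers, all were well above background in BT474 and all but CDH1 in SkBr3. Of 5 fibroblast markers with a probe, COL3A1 in the SkBr3 clone was the only one well above background. The summed signal of 5 leukocyte markers was between 161 and 525, with PTPRC not well above background on any array, and that of 3 endothelial markers was between 181 and 1395, highest in the SkBr3 clone, where all 3 were well above background. The part of such signals in the results was not tested.

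**Figure D5:**
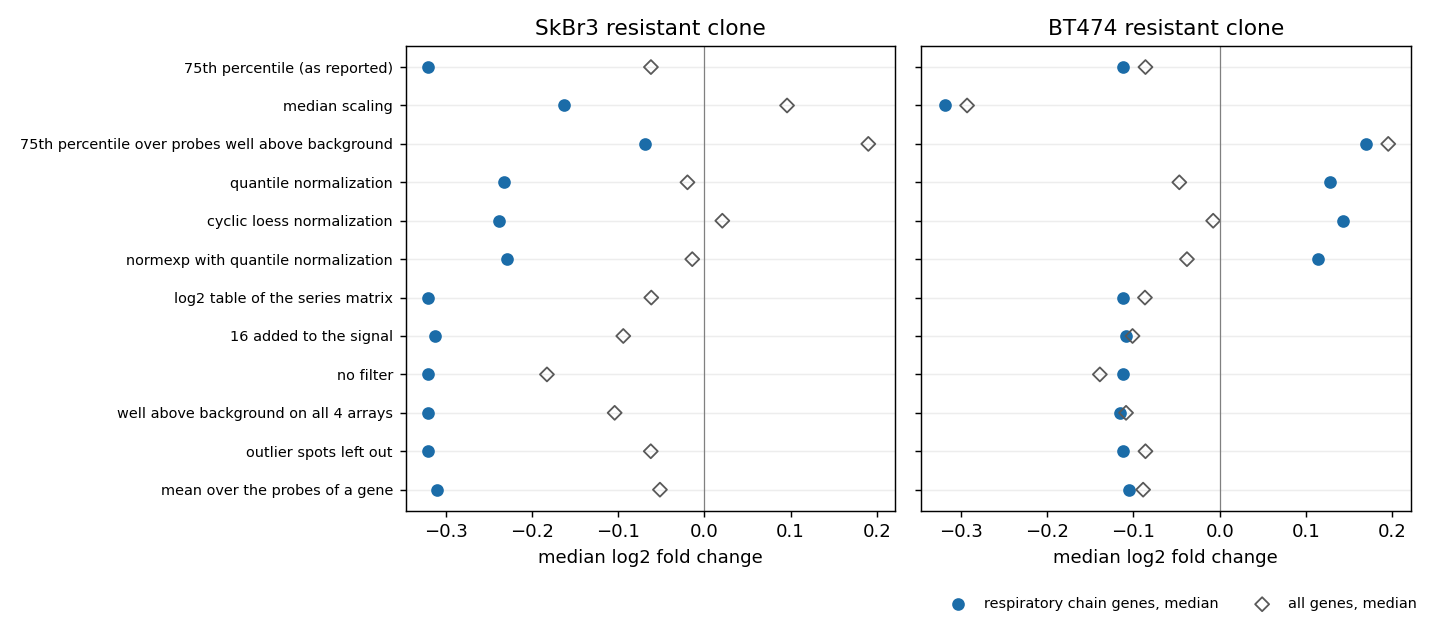
Median log2 fold change of the respiratory chain genes (filled) and of all genes (open diamonds) in each resistant clone under the reported setting and 11 alternatives. In SkBr3 the respiratory chain median is below that of all genes throughout, between -0.32 and -0.07, and in BT474 it lies between -0.32 and 0.17, on either side of 0.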

How the data were processed

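RNA of 4 samples, 1 per group, was hybridised to Agilent human 4 x 44K arrays in 1 colour (Cy3). The deposited scanner files hold spot intensities that, per the file headers, the Feature Extraction software (version 10.1.1.1) background-subtracted, together with flags for spots well above background. The methods name another software version, Cy3 or Cy5 and LOWESS, so the headers and labels were followed. The authors also deposited a log2 table, used as an alternative only. Its differences within a cell line matched those of the scaled signals (Pearson's r 0.99999 and 0.99998 over probes), and its column medians were 0.125, -0.198, 0.106 and -0.0457. How its probes were centred is not given in the sources used here.

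Spots of a probe were averaged, and log2 processed signals were centred on the 75th percentile of each array over 41000 probes. Probes with a signal of 100 on at least 1 array were kept (25927). Probes were named through RefSeq accessions (23680), and each gene was represented by the brightest of its kept probes on average. A probe was well above background where at least 50% of its spots were. Where 1 side of a pair was not, the fold is a lower limit against the lowest signal well above background or the dim probe's own, and where neither was, no fold is given.

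With 1 array per group, 2-fold thresholds describe each clone and no test was made. The effect of resistance over both cell lines was fitted with limma 3.58.1 (R 4.3.3), with Benjamini-Hochberg adjustment over all kept probes, and the scripts were tested on simulated data. The text names members that passed 2-fold, the highest and lowest in each complex, core subunits, isoform pairs, and regulators and genes that passed 2-fold in both clones. Other names were picked after their values were seen. The gene members, lists and rules were chosen with earlier results of these data known. Motifs were searched in RefSeq promoter windows (GRCh38.p14). Alternatives covered scaling, background correction, filters, outlier spots, probe choice and threshold. The values of 1 gene are not reported here.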

Additional observations from a re-analysis of the deposited data

Results flagged for a closer look

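COX6C, NDUFA5, ATP5F1D and ATP5F1A were at least 2-fold lower in the SkBr3 clone while their BT474 values were above 0. Of these BT474 values, only that of COX6C stayed above 0 in all 12 settings. COX6C had a log2 fold change of -1.36 in SkBr3 and 0.25 in BT474, a difference of -1.61, and kept both directions in all 12 settings. ATP5F1D had -1.12 and 0.11, a difference of -1.23. Its BT474 value was near the SD of spots within a single array (0.081), although a fold change carries the error of both arrays. The BT474 value became -0.10 with median scaling, and the SkBr3 value passed 2-fold in 10 of 12 settings. The differences were -1.32 for NDUFA5 and -1.08 for ATP5F1A, whose BT474 values of 0.07 and 0.05 were under that SD. With 1 array per group, none of these differences was tested.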

How the results depend on the processing

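Each clone is 1 array, so values carry no error between cultures, and dim probes such as COX7B2 are the least certain. The replicate number was 1 in every group and gave no block for pairing. The limma fit paired the samples by cell line instead, which set each clone against its own parent. Medians of log2 fold change and of the cell line difference, and counts past a fold, were recomputed under 11 alternatives and, for the clones, a 1.5-fold threshold. Of these values 104 stayed close to those reported and 36 moved, and the BT474 median, which passed no threshold, turned above 0 under 4 alternatives. With median scaling the respiratory chain median was -0.16 in the SkBr3 clone (2 genes at least 2-fold lower) and -0.32 in the BT474 clone (2 lower, NDUFV3 and NDUFAF2). With the percentile over probes well above background it was -0.068 (1 lower) and 0.17, after quantile normalization -0.23 and 0.13, after cyclic loess -0.24 (3 lower) and 0.14, and after normexp -0.23 and 0.11. At 1.5-fold, 23 genes were lower in the SkBr3 clone (26.4%, and 25.3% of all genes), and in the BT474 clone 5 were lower (5.75%, and 16.05% of all genes) and 1 higher (1.15%, and 15.9%). When all 4 arrays had to be well above background, 0 genes were at least 2-fold higher in the SkBr3 clone, since COX7B2 was left out. The cell line comparisons were recomputed after the data had been seen. Between parental cells the median difference was 0.49 with the percentile over probes well above background, 0.47 after quantile normalization (13 genes at least 2-fold higher in SkBr3, and 18.4% of all genes), 0.45 after cyclic loess (14, and 17.9%) and 0.48 after normexp (14, and 15.6%). Between clones it was 0.94 with median scaling (40 higher, and 34.3% of all genes), 0.40 with the percentile over probes well above background, 0.25 after quantile normalization (5 higher, and 23.7%), 0.20 after cyclic loess (5 higher, and 22.8%; 10 lower, and 24.2%) and 0.23 after normexp (5 higher and 10 lower, and 21.0% of all genes each way). Over all genes, the SkBr3 clone had 14.1% at least 2-fold higher and 14.4% lower, which became 18.8% and 10.3% with the percentile over probes well above background. For the BT474 clone 9.2% and 5.4% became 13.1% and 3.45%, and 7.45% and 8.54% with median scaling. The cause of these shifts was not tested. By limma 0 respiratory chain genes passed an adjusted p under 0.05 with cell line as block, with slide as block, without a block, after quantile normalization and with the stricter filter.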

Other observations

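CYCS, the gene of cytochrome c, which carries electrons from complex III to complex IV and is not matched by the symbol rule, had scaled signals of 24.8 in SkBr3 parental, 20.3 in SkBr3 resistant, 9.32 in BT474 parental and 7.23 in BT474 resistant cells. It was below the parent in both clones, with log2 fold changes of -0.29 and -0.37, and higher in SkBr3 than in BT474, by 2.66-fold in parental cells and 2.81-fold in the clones. Of the 4 genes of the tricarboxylic acid cycle that were at least 2-fold lower in the SkBr3 clone, IDH2 is given above, and DLD had a log2 fold change of -1.13, PDHX of -1.11 and SUCLA2 of -1.08. DLD and PDHX belong to the pyruvate dehydrogenase complex, and SUCLA2 to succinyl-CoA synthetase. IDH3A, a subunit of the NAD-linked isocitrate dehydrogenase, was the gene of the cycle that was higher in the BT474 clone (scaled signal 0.751 in parental and 2.45 in resistant cells, 3.26-fold higher). Of the 76 genes of the mitochondrial ribosome, 3 were at least 2-fold higher in the SkBr3 clone (MRPL33, MRPL40 and MRPS30), and none was at least 2-fold lower. Of all genes 14.1% were higher and 14.4% lower by that much. Genes in this paragraph were picked after their values were seen.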
